A study of Mus musculus with 8 samples.

Results

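The sphingomyelinase family is described here as 6 mouse genes, *Smpd1*, *Smpd2*, *Smpd3*, *Smpd4*, *Smpdl3a* and *Smpdl3b*, taken by name from a table of 55416 gene identifiers. The tissue was liver, and the 8 libraries formed 2 groups of 4. In the HKO group (Alb-cre+) Cre recombinase under the albumin promoter removed the floxed *Smpd3* gene in hepatocytes, and the FLOX group (Alb-cre-) carried no Cre. Both groups were fed HFMCD for 9 weeks, so the comparison holds only on that diet, and the presence of Cre cannot be told apart from the loss of *Smpd3*. The sources used here state neither sex, age nor strain. They also do not say whether the libraries of a group stem from different animals, so p-values reflect only the scatter among these samples, which may be technical. Albumin-driven Cre acts in hepatocytes, so macrophages, endothelial and stellate cells of these livers are not its targets. All 10 hepatocyte markers were present in every library, among them *Alb*, which averaged 44559 ± 3473 TPM in HKO livers and 47418 ± 4596 TPM in FLOX livers (SD, n = 4 each).

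Sphingomyelinases cut the membrane lipid sphingomyelin into ceramide and phosphocholine. The classes are named for the pH at which they work and for where they sit. *Smpd1* encodes acid sphingomyelinase of the lysosome, the enzyme missing in Niemann-Pick disease types A and B. *Smpd2*, *Smpd3* and *Smpd4* encode the neutral sphingomyelinases 1, 2 and 3, of which neutral sphingomyelinase 2 acts at the plasma membrane and Golgi and is known for its part in exosome release. *Smpdl3a* and *Smpdl3b* resemble *Smpd1* in sequence, but their proteins act on nucleotides and related phosphodiesters rather than mainly on sphingomyelin.

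Levels are given as TPM, a measure of transcript abundance scaled by transcript length and by each library's own total, so that genes can be compared with one another. Fold changes are HKO minus FLOX on the log2(TPM + 1) scale, which understates changes of scarce transcripts. The test in limma covered the 12710 genes that reached 1 TPM in 4 or more libraries, with Benjamini-Hochberg adjustment over all of them. Of these, 13 (0.102%) passed an adjusted p of 0.05. Across all tested genes the median log2 fold change was 0.05. The libraries had 12115 to 12890 genes at 1 TPM or more. FLOX 4 stood apart with the fewest of these genes and the largest share of TPM in mitochondrially encoded genes, 8.92% against 6.72% to 8.04% in the other 7 libraries. TPM does not record sequencing depth, so counting error could not be put on any value.

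*Smpd3* (ENSMUSG00000031906) fell in HKO livers, and it alone among the 5 tested members passed. Its level was 1.17, 3.03, 1.27 and 2.06 TPM in HKO livers 1 to 4, against 8.69, 10.72, 12.54 and 6.38 TPM in FLOX livers 1 to 4. Every HKO library lay below every FLOX library, and the highest HKO value was under the lowest FLOX value by more than the whole HKO range. The log2 fold change was -1.89 ± 0.24 (SE; 95% interval -2.42 to -1.35; limma adjusted p = 0.0300). A 2-sided exact permutation test gave p = 0.0286, the smallest that 4 against 4 libraries allow. The call ended without FLOX 1 (adjusted p = 0.0874 in limma), FLOX 2 (0.0558), HKO 1 (0.0727), HKO 3 (0.0680) or HKO 4 (0.0505), and in the fit without a filter on low values (0.167). The value itself ranged from -2.06 to -1.76 over the fits without a library, and was -1.07 with a pseudocount of 5. In bulk liver, fewer cells of a type and less RNA per cell cannot be told apart.

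Not all *Smpd3* transcript was lost, and the remainder was uneven. As a share of the FLOX mean, HKO 1 kept 12.2%, HKO 2 kept 31.6%, HKO 3 kept 13.3% and HKO 4 kept 21.5%. The mean was 19.6% ± 9.00 (SD, n = 4), with a 2.59-fold spread between the highest and lowest HKO library. FLOX libraries spanned 1.97-fold. The value is the sum over a gene's whole transcripts, so transcript that lacks only the floxed exons and transcript from cells without Cre both count toward it and cannot be told apart.

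**Figure D1:**
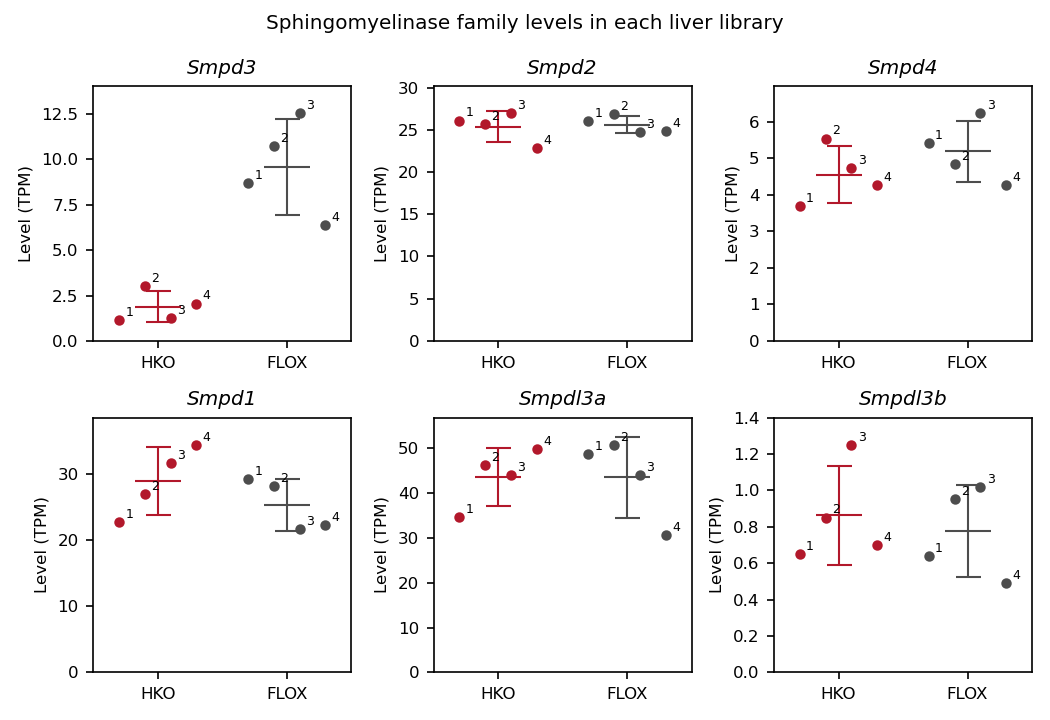
Level in TPM of each family member in each library, HKO left of FLOX, with the mean and SD (n = 4 per group); numbers beside points are replicate numbers. The HKO points for *Smpd3* sit at 1.17 to 3.03 TPM, all below the FLOX points at 6.38 to 12.54 TPM, while in the other panels the groups overlap.

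Markers of cells other than hepatocytes stood as follows beside this remainder. Cholangiocytes descend from the same albumin-expressing progenitors as hepatocytes, and albumin-driven Cre can act in them as well. Of 8 cholangiocyte markers, 6 were tested and 0 passed. Their summed level was 472, 654, 192 and 346 TPM in HKO livers 1 to 4, against 259 to 482 TPM in FLOX livers, and most of it was *Spp1*, which macrophages also express. The duct epithelial marker *Epcam* was highest in HKO 2, the library with the most *Smpd3* of its group, at 12.85 TPM, and lowest in HKO 3, at 2.50 TPM. The summed level of 10 stellate cell and fibroblast markers was 472 to 677 TPM in HKO livers, again highest in HKO 2, against 277 to 598 TPM in FLOX livers. HKO 1 had the least *Smpd3* but the second highest cholangiocyte sum of its group. The other lists of such cells did not peak in HKO 2. Among HKO livers, the endothelial, Kupffer cell and recruited macrophage sums were highest in HKO 4. The T and NK cell and the B and plasma cell sums were highest in HKO 3, and the neutrophil sum in HKO 1. No cholangiocyte, stellate cell or fibroblast marker was at 0 in all libraries. The part of cells other than hepatocytes in the remaining *Smpd3* was not tested.

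Reads from related or overlapping genes were checked as another contribution to the *Smpd3* value. Among GENCODE M21 transcripts, 0 of the 5176 different 25-base words of *Smpd3* occurred in another family member in the same orientation. The same held for each of the 6 members. In that annotation 3 genes overlap *Smpd3*. *Prmt7*, an arginine methyltransferase gene on the opposite strand, shares 4.31% of the words of *Smpd3*. The lincRNA genes *Gm26786* on the same strand and *Gm10629* on the opposite strand share 0 of them. *Gm26786* had no value under that symbol among the deposited genes, and *Gm10629* was listed at 0 to 0.03 TPM in HKO livers and in FLOX livers. *Prmt7* averaged 6.05 ± 0.66 TPM in HKO livers and 6.73 ± 0.80 TPM in FLOX livers (SD, n = 4 each), a difference that did not pass (limma adjusted p = 0.898). The kit was stranded, but the sources used here do not say how strand entered the counting, and the small overlap leaves the lowest *Smpd3* values uncertain.

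The other neutral sphingomyelinases did not pass. *Smpd2* (ENSMUSG00000019822), which encodes neutral sphingomyelinase 1 of the endoplasmic reticulum, had 26.08, 25.66, 26.95 and 22.81 TPM in HKO livers 1 to 4, against 26.00, 26.84, 24.74 and 24.89 TPM in FLOX livers 1 to 4. The groups overlapped, and *Smpd2* was the steadiest member, with a coefficient of variation of 7.06% in HKO livers and 3.86% in FLOX livers. Its log2 fold change was -0.02 ± 0.09 (SE; limma adjusted p = 0.993). The 95% interval ran from a 0.86-fold to a 1.14-fold level on the TPM + 1 scale, so a rise larger than that lies outside it. *Smpd2* overlaps *Mical1* on the opposite strand over 17.4% of its words, which makes its level less certain. *Mical1* averaged 4.84 ± 0.93 TPM in HKO livers and 4.25 ± 0.47 TPM in FLOX livers (SD, n = 4 each).

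*Smpd4* (ENSMUSG00000005899), which encodes neutral sphingomyelinase 3 of the endoplasmic reticulum and nuclear envelope, had 3.68, 5.54, 4.73 and 4.26 TPM in HKO livers 1 to 4, against 5.42, 4.84, 6.23 and 4.26 TPM in FLOX livers 1 to 4. The groups overlapped, with HKO 4 and FLOX 4 at the same value. Its log2 fold change was -0.16 ± 0.15 (SE; limma adjusted p = 0.896), with a 95% interval from 0.71-fold to 1.14-fold on the TPM + 1 scale.

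The acid sphingomyelinase gene had the highest point estimate among the members but did not pass. *Smpd1* (ENSMUSG00000037049) had 22.71, 27.00, 31.72 and 34.46 TPM in HKO livers 1 to 4, against 29.26, 28.24, 21.71 and 22.31 TPM in FLOX livers 1 to 4. HKO 3 and HKO 4 lay above every FLOX library, while HKO 1 lay among the lowest FLOX libraries. Its log2 fold change was 0.18 ± 0.15 (SE; limma adjusted p = 0.863), and the 95% interval from 0.90-fold to 1.43-fold leaves room for either a small fall or a rise. A 2-sided exact permutation test of *Smpd1* gave p = 0.343.

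The acid sphingomyelinase-like genes stood at opposite ends of the family. *Smpdl3a* (ENSMUSG00000019872), which encodes a secreted phosphodiesterase and is a target of the sterol receptor LXR in human macrophages, had 34.66, 46.24, 43.96 and 49.82 TPM in HKO livers 1 to 4, against 48.74, 50.78, 43.97 and 30.56 TPM in FLOX livers 1 to 4. The group means differed by less than either SD, at 43.7 ± 6.47 TPM in HKO livers and 43.5 ± 9.09 TPM in FLOX livers (n = 4 each), and the lowest library of each group, HKO 1 and FLOX 4, stood apart from the rest. Its log2 fold change was 0.02 ± 0.17 (SE; limma adjusted p = 0.995), with a 95% interval from 0.78-fold to 1.31-fold. Its sign turned without FLOX 4 (-0.14), without HKO 4 (-0.047) and without HKO 2 (-0.012). It also turned under both rescalings of the table (-0.043 and -0.0055) and with library weights (-0.017). *Smpdl3a* did not pass in any of these settings.

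*Smpdl3b* (ENSMUSG00000028885), which encodes a membrane-anchored phosphodiesterase known in mouse macrophages as a brake on Toll-like receptor signalling, was the scarcest member and reached 1 TPM in only 2 libraries. It had 0.65, 0.85, 1.25 and 0.70 TPM in HKO livers 1 to 4, against 0.64, 0.95, 1.02 and 0.49 TPM in FLOX livers 1 to 4, and the groups overlapped. It was below the filter and was therefore read from a fit over all 26719 genes with any value above 0, in which 0 genes passed by limma and 1539 had an unadjusted p under 0.05. There its log2 fold change was 0.07 ± 0.15 (SE; adjusted p = 0.918). At levels this low the scale with 1 TPM added compresses any change.

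Of the 6 members, 5 were therefore tested, 1 was lower, 0 were higher and 4 did not pass, beside 0.0551% of all tested genes called lower and 0.0472% called higher. The median log2 fold change of the 5 was -0.02. The groups did not overlap for *Smpd3* alone among the 5, whereas 4.74% of all tested genes had groups that did not overlap, 1.46% lower and 3.29% higher in HKO livers.

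**Figure D2:**
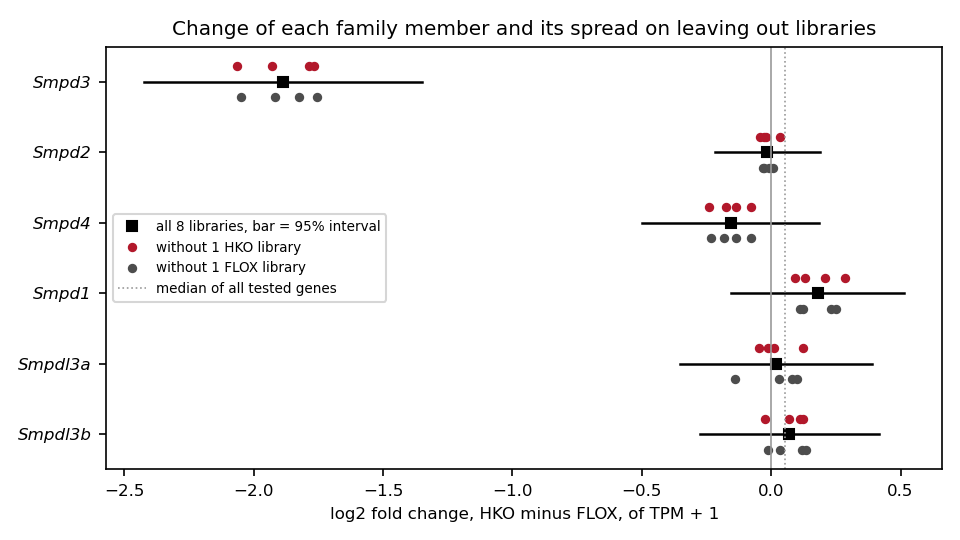
log2 fold change of each member (squares) with its 95% interval, and the same value after leaving out 1 HKO library (red) or 1 FLOX library (grey); the dotted line is the median of all tested genes. *Smpd3* lies at -1.89 and stays between -2.06 and -1.76, while the intervals of the other members span 0.

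The loss of *Smpd3* changed the order of the family by 1 place. In all 8 libraries *Smpdl3a* was the most abundant member and *Smpdl3b* the least. *Smpd1* and *Smpd2* shared the places after *Smpdl3a* and did not differ beyond their spread, at 29.0 ± 5.19 and 25.4 ± 1.79 TPM in HKO livers and at 25.4 ± 3.92 and 25.6 ± 0.99 TPM in FLOX livers (SD, n = 4 each). *Smpd3* ranked below *Smpd4* in all 4 HKO livers, and above it in all 4 FLOX livers. The ratio of *Smpd3* to *Smpd4* was 0.27 to 0.55 in HKO livers, against 1.498 to 2.21 in FLOX livers. Among tested genes, the mean level of *Smpd3* was at the 10.8th percentile in HKO livers and at the 50.9th in FLOX livers.

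Summed over the neutral sphingomyelinases, the HKO livers had 30.9, 34.2, 33.0 and 29.1 TPM, against 40.1, 42.4, 43.5 and 35.5 TPM in the FLOX livers. The groups did not overlap, and *Smpd3* made up 3.78% to 8.85% of this sum in HKO livers, against 17.96% to 28.8% in FLOX livers. The sum of *Smpd2* and *Smpd4* without *Smpd3* overlapped, at 29.9 ± 2.07 TPM in HKO livers and 30.8 ± 1.14 TPM in FLOX livers (SD, n = 4 each). *Smpd3* was lower by 7.70 TPM on average, while *Smpd1* was 3.59 TPM higher in the mean, a difference under the SD of 5.19 TPM in HKO livers. Over all 6 members the sum was 88.95 to 114 TPM in HKO livers and 88.89 to 122 TPM in FLOX livers, so the groups overlapped. These sums follow from the choice of members and are given as a description.

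**Figure D3:**
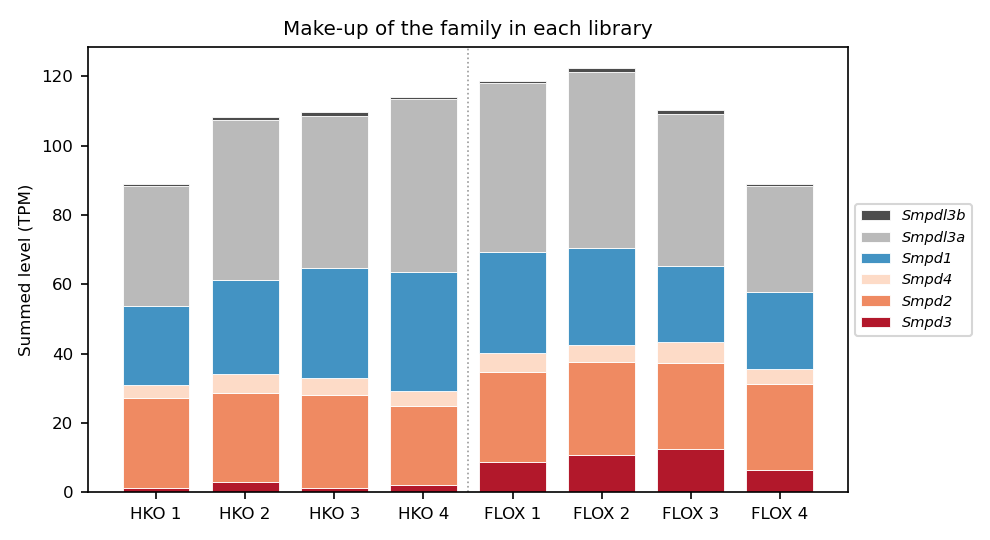
Summed TPM of the 6 members in each library, stacked by gene, HKO libraries left of FLOX libraries. The *Smpd3* segment spans 1.16% to 2.80% of the bar in HKO libraries and 7.18% to 11.4% in FLOX libraries, and the bars of HKO 1 and FLOX 4 are the shortest.

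The libraries lowest for *Smpdl3a*, HKO 1 and FLOX 4, were also the lowest of their groups in the summed level of 11 of the 20 gene lists read beside the family. These lists included Kupffer cell, endothelial and T and NK cell markers, lysosomal genes, LXR targets and the ceramide routes. The summed level of 8 Kupffer cell markers, of which 6 were tested and 0 passed, was 198, 301, 355 and 411 TPM in HKO livers 1 to 4, against 332, 397, 471 and 204 TPM in FLOX livers 1 to 4. For 20 lysosomal genes the sum was 4136 to 5093 TPM in HKO livers and 3451 to 5312 TPM in FLOX livers, lowest in HKO 1 and FLOX 4. Markers of recruited macrophages stood otherwise, with HKO 3 the lowest HKO library at 1216 TPM and HKO 1 at 1491 TPM, while FLOX 4 was the lowest FLOX library at 957 TPM. All 20 lysosomal genes were tested, 0 passed, and the median log2 fold change was 0.01. No Kupffer cell marker was at 0 in all libraries, and the part of macrophage content in the level of *Smpdl3a* was not tested. Of 10 LXR receptors and targets 0 passed (median log2 fold change -0.04). In 1 of the 10 the groups did not overlap, beside 4.74% of all tested genes, 1.46% lower and 3.29% higher in HKO livers. That gene was the biliary sterol exporter gene *Abcg8*, at 16.88, 18.72, 18.70 and 12.25 TPM in HKO livers 1 to 4, against 21.76, 31.71, 20.44 and 19.08 TPM in FLOX livers 1 to 4 (log2 fold change -0.45 ± 0.18 SE; limma adjusted p = 0.550).

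Other sphingomyelin-cleaving enzymes were scarce. *Smpd5*, a mitochondria-associated neutral sphingomyelinase, had 0.12, 0.81, 0.24 and 0.92 TPM in HKO livers 1 to 4, against 0.42, 0.23, 0.43 and 0.34 TPM in FLOX livers 1 to 4. HKO 2 and HKO 4 lay above every FLOX library and HKO 1 below them all. *Enpp7*, the alkaline sphingomyelinase of the intestine, was listed at 0 in all 8 libraries. Neither passed the filter on low values.

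The enzymes that make sphingomyelin showed no called change. Of the 2 sphingomyelin synthases, their relative *Samd8* and the ceramide transfer gene *Col4a3bp*, all 4 were tested and 0 passed, with a median log2 fold change of 0.36. The plasma membrane synthase gene *Sgms2* had 10.33, 10.62, 14.03 and 13.72 TPM in HKO livers 1 to 4, against 9.34, 11.59, 7.24 and 8.75 TPM in FLOX livers 1 to 4. The groups overlapped through FLOX 2 (log2 fold change 0.37 ± 0.16 SE; limma adjusted p = 0.606). The Golgi synthase gene *Sgms1* averaged 7.93 ± 1.75 TPM in HKO livers and 5.95 ± 2.24 TPM in FLOX livers (SD, n = 4 each; limma adjusted p = 0.750).

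The neighbouring routes of ceramide were likewise without called change, apart from the ganglioside branch. Of 11 genes that break down ceramide or its products, 9 were tested and 0 passed (median log2 fold change -0.03), with *Acer2*, a Golgi ceramidase gene, at 2.86 ± 1.13 TPM in HKO livers and 4.43 ± 1.60 TPM in FLOX livers (SD, n = 4 each). Of 17 genes of ceramide synthesis from serine and palmitate, 12 were tested and 0 passed (median 0.04). There *Ormdl3*, a brake on the pathway's first enzyme, averaged 58.7 ± 4.41 TPM in HKO livers and 49.1 ± 6.05 TPM in FLOX livers (SD, n = 4 each; limma adjusted p = 0.561). Of 14 glycosphingolipid genes, 13 were tested and 12 did not pass (median 0.03). In this list 1 gene was lower and 0 were higher, beside 0.0551% of all tested genes called lower and 0.0472% called higher. The lower gene was *St3gal5*, the GM3 synthase gene, at 32.08, 45.00, 57.00 and 52.02 TPM in HKO livers 1 to 4, against 108.83, 152.25, 111.73 and 110.02 TPM in FLOX livers 1 to 4 (limma adjusted p = 0.0300). Its adjusted p in limma was 0.0978 without HKO 2, 0.0622 without HKO 3, 0.0874 without FLOX 1 and 0.0830 without FLOX 4, and 0.167 in the fit without a filter on low values.

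**Figure D4:**
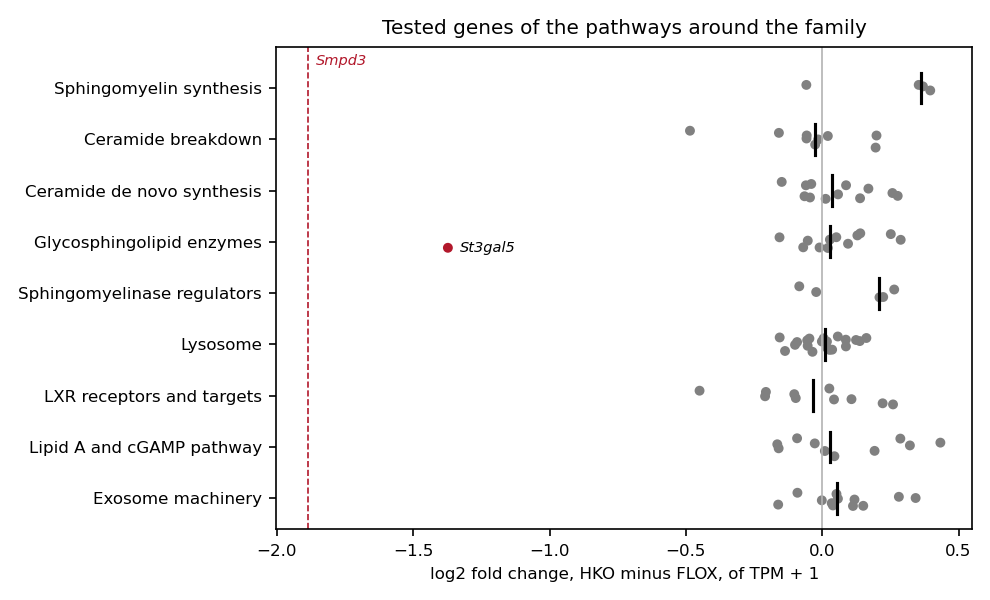
log2 fold changes (HKO minus FLOX, of TPM + 1) of the tested genes in 9 lists around the family; black bars are list medians, red marks an adjusted p under 0.05, and the dashed line is *Smpd3*. *St3gal5* at -1.37 is the only gene of these lists past the threshold, and the list medians lie between -0.04 and 0.36.

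Genes whose products act on or with sphingomyelinases were measured too. Of 5 regulators 0 passed (median log2 fold change 0.21). *Nsmaf*, which encodes an adaptor that links the tumour necrosis factor receptor to neutral sphingomyelinase, had 11.42, 11.37, 12.20 and 10.86 TPM in HKO livers 1 to 4, against 11.93, 8.77, 8.68 and 8.46 TPM in FLOX livers 1 to 4. FLOX 1 alone reached the HKO range (limma adjusted p = 0.665). Of 13 exosome genes, 12 were tested and 0 passed (median 0.05). In 2 of the 12 the groups did not overlap, both higher in HKO livers, beside 3.29% of all tested genes that were higher without overlap. The endosomal sorting gene *Stam* had 8.51 to 8.65 TPM in HKO livers and 5.81 to 7.74 TPM in FLOX livers (limma adjusted p = 0.449). *Cd81* had 250.82 to 287.73 TPM in HKO livers and 234.05 to 249.80 TPM in FLOX livers (limma adjusted p = 0.633). Of 11 genes of lipid A and cGAMP signalling, the settings in which *Smpdl3b* and *Smpdl3a* are studied in immune cells, 10 were tested and 0 passed (median 0.03). The TLR4 co-receptor gene *Ly96* had 12.48 to 14.47 TPM in HKO livers and 8.07 to 10.91 TPM in FLOX livers, also without overlap (limma adjusted p = 0.283).

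Genes beside *Smpd3* on chromosome 8, which travel with the floxed locus, are given as a description. If FLOX livers carry that locus too, as their name implies, this comparison cannot show differences inherited with it. In the gene order of RefSeq GRCm38.p6, the 10 tested genes nearest on each side had log2 fold changes of -0.21 to 0.24, with a median of 0.06. Of these 20 genes 0 passed by limma and in 0 were the groups free of overlap, and the smallest adjusted p was 0.797. The immediate neighbours were *Prmt7* at -0.13 and the zinc finger gene *Zfp90* at 0.24.

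**Figure D5:**
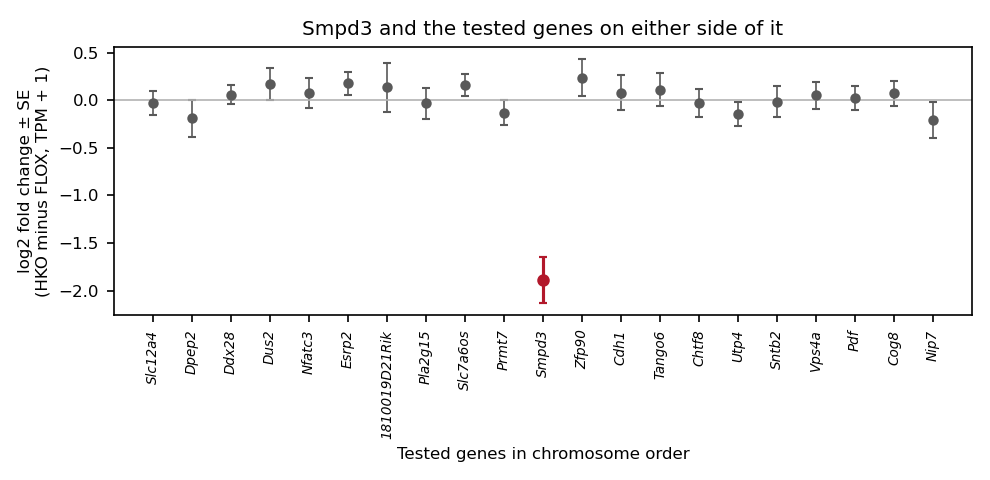
log2 fold change ± SE (HKO minus FLOX, of TPM + 1) of *Smpd3* (red) and the 10 tested genes on each side of it in chromosome order. *Smpd3* lies at -1.89 and its neighbours between -0.21 and 0.24.

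The genes most like *Smpd3* across the 8 libraries were found by the root mean square gap between log2 deviations from each gene's own mean, a description without a test. The median gap of the other 12709 tested genes was 1.03 log2 units. The 5 nearest were sought among 11581 of them, leaving out genes with no symbol or with a clone-type name, and were *Igkv3-4* (0.35), *Iglv3* (0.42), *St3gal5* (0.45), *Chd9* (0.48) and *Mt2* (0.49). The first pair are immunoglobulin light chain segments whose reads can be shared with close copies. Both were called lower (limma adjusted p = 0.0300 each), with *Igkv3-4* at 0 to 0.84 TPM in HKO livers and 2.59 to 9.02 TPM in FLOX livers, and *Iglv3* at 0 to 0.31 TPM in HKO livers and 2.24 to 7.47 TPM in FLOX livers. Each reached 1 TPM in the 4 FLOX libraries alone, and so entered the test only through the group where it was high. *Chd9*, a chromatin remodeller gene, had 140 to 240 TPM in HKO livers and 285 to 451 TPM in FLOX livers, and it did not pass (limma adjusted p = 0.0930). *Mt2*, a metallothionein gene, had 125 to 250 TPM in HKO livers and 336 to 747 TPM in FLOX livers and likewise did not pass (limma adjusted p = 0.0930).

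Other cell type markers and clock genes were read beside the family. Summed levels overlapped between the groups for each marker list. For 10 endothelial markers they were 103 to 129.5 TPM in HKO livers and 76.1 to 164 TPM in FLOX livers, and for 8 recruited macrophage markers 1216 to 1791 TPM in HKO livers and 957 to 1736 TPM in FLOX livers. For 10 hepatocyte markers they were 63546 to 71824 TPM in HKO livers and 70810 to 83251 TPM in FLOX livers. Of these 10 markers, 1 had a log2 fold change above 0. In 2 of the 10 the groups did not overlap, both lower in HKO livers, beside 1.46% of all tested genes. *Apoa1* had 10017.6 to 11786.1 TPM in HKO livers and 12216.6 to 16467.5 TPM in FLOX livers (limma adjusted p = 0.204). *Serpina1a* had 3704.2 to 4163.05 TPM in HKO livers and 4205.82 to 4463.46 TPM in FLOX livers (limma adjusted p = 0.633). For 10 T and NK cell markers the summed levels were 10.97 to 33.8 TPM in HKO livers and 8.98 to 23.9 TPM in FLOX livers. For 8 B and plasma cell markers they were 19.9 to 30.9 TPM in HKO livers and 15.4 to 29.9 TPM in FLOX livers. For 6 neutrophil markers they were 50.7 to 57.8 TPM in HKO livers and 37.7 to 64.1 TPM in FLOX livers. No tested member of these lists or of the stellate list passed, and no marker was at 0 in every library. FLOX 4, the control with the least *Smpd3*, was the lowest control in 8 of the 9 marker lists, all but the hepatocyte list. Of 15 circadian clock genes 14 were tested, with a median log2 fold change of -0.38 over members that lay on both sides of 0. Of the 14, 1 was called higher (*Arntl*, the gene of the clock activator BMAL1), beside 0.0472% of all tested genes. None of the 14 was called lower, beside 0.0551% of all tested genes. In 6 of the 14 the groups did not overlap, 4 higher and 2 lower in HKO livers. Of all tested genes 4.74% had groups that did not overlap, 3.29% higher and 1.46% lower in HKO livers. *Arntl* averaged 14.3 ± 3.55 TPM in HKO livers and 4.77 ± 1.44 TPM in FLOX livers (SD, n = 4 each). Its partner gene *Npas2* had 2.42 to 4.36 TPM in HKO livers and 0.50 to 1.49 TPM in FLOX livers (limma adjusted p = 0.0930). The clock repressor gene *Ciart* had 0.37 to 0.56 TPM in HKO livers and 1.37 to 4.90 TPM in FLOX livers (0.0865), and so reached 1 TPM in FLOX livers alone. *Nfil3*, a repressor gene that cycles with the clock, had 22.97 to 36.99 TPM in HKO livers and 9.04 to 16.85 TPM in FLOX livers (limma adjusted p = 0.104). The remaining pair, named after their values were seen, were the clock output gene *Dbp* and the clock repressor gene *Cry1*. *Dbp* had 1.68 to 3.27 TPM in HKO livers and 5.43 to 35.43 TPM in FLOX livers, a log2 fold change of -2.44 ± 0.46 (SE; limma adjusted p = 0.108). *Cry1* had 4.60 to 13.54 TPM in HKO livers and 1.42 to 3.69 TPM in FLOX livers (limma adjusted p = 0.215). *Arntl* (limma adjusted p = 0.0490) kept its call only without FLOX 3 (0.0432) among the 8 fits that left out a library, with adjusted p of 0.0568 to 0.144 in the others. It also did not pass with pseudocounts of 0.1 (0.0572) and 5 (0.0544) or without a filter (0.230). The sources used here do not state the time of collection, and its part in the family's values was not tested.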

How the data were processed

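RNA was measured in 8 mouse liver libraries, 4 per group, prepared with a stranded kit from total RNA, per the labels' protocols. The authors deposited TPM values for 55416 gene identifiers with 2 decimals and 1 column per library. RSEM 1.3.3 and GRCh38.p13 are listed in the submitters' processing notes; GRCh38 is a human build, whereas the identifiers are those of mouse. The sources used here do not give the aligner, annotation or strand setting, and no coordinates are printed. TPM keeps no depth, and no count test was run. Symbols came from a table of GENCODE M21 names, which matched 52083 identifiers.

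Values were taken to log2(TPM + 1), and genes at 1 TPM or more in at least 4 libraries were compared, HKO minus FLOX, in limma 3.58.1 under R 4.3.3 (eBayes with trend, no covariates), with Benjamini-Hochberg adjustment. *Smpdl3b* was read from a fit without the filter, chosen after the values were seen. The same code was tested on simulated data. No set test was run. Up to 4 members of smallest p could be named per list, and others are said to be chosen later. The members and the 20 lists around them were chosen with earlier results of these data known. Words of 25 bases shared with genes outside the family were searched on both strands of GENCODE M21 transcripts. Words shared between members were searched in the same orientation only. GENCODE M21 may not be the annotation used for the deposited values. Alternatives were pseudocounts of 0.1 and 5, no filter, scaling by median of ratios, rescaling without mitochondrially encoded and the 20 most abundant genes, library weights, a replicate block and leaving out each library. The rescaling without mitochondrially encoded and the 20 most abundant genes left those genes out of the test, which then covered 12678 genes. The fit without a filter covered 26719 genes. All other settings used the same 12710 tested genes.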

Additional observations from a re-analysis of the deposited data

Results flagged for a closer look

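The share of *Smpd2* in the summed TPM of the 6 members was 28.0% in FLOX 4, far from the other FLOX livers at 21.9% to 22.4%. HKO 1 had a similar share, 29.3%, beside 19.99% to 24.5% in the other HKO livers. In TPM, *Smpd2* itself stood at 24.89 in FLOX 4, within the range of the other libraries, while the sum of the family was lowest there, at 88.89 TPM. It was the only such value among 42 sets of 4 libraries examined, and chance flags about 1 in 20 such sets.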

How the results depend on the processing

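The log2 fold change of *Smpd3* kept its sign in every setting run and its call with pseudocounts of 0.1 and 5 (-2.34 and -1.07), both rescalings (-1.94 and -2.05) and library weights (-1.93). It did not pass with the replicate block (-1.89, adjusted p = 0.0818), without a filter (-1.89, adjusted p = 0.167) or without some single libraries (range -2.06 to -1.76, adjusted p 0.0358 to 0.0874). Its residual share stayed between 15.7% and 22.1%. No other member passed in any setting. *Smpd1* stayed above 0 and *Smpd4* below 0 throughout, although they ranged from 0.093 to 0.287 and from -0.239 to -0.078 when a library was left out. The log2 fold change of *Smpdl3a* turned to -0.043 with median-of-ratios scaling, -0.0055 without mitochondrially encoded and the 20 most abundant genes and -0.017 with library weights, and ranged from -0.14 to 0.12 when a library was left out. *Smpd2* ranged from -0.044 to 0.033 and *Smpdl3b* from -0.025 (also below 0 without FLOX 4, -0.011) to 0.14 when a library was left out. The cause of these turns was not tested.

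The number of genes past the threshold was 13 as reported, 8 and 6 with pseudocounts of 0.1 and 5, and 20 with library weights or without mitochondrially encoded and the 20 most abundant genes. It was 0 without a filter, where 1539 had an unadjusted p under 0.05 in limma. It was 0 to 16 when a library was left out, with 0 in limma without HKO 3 or FLOX 1, where 780 and 960 had an unadjusted p under 0.05. With the replicate block it was 0 in limma, with 743 at an unadjusted p under 0.05, and the calls of *St3gal5* (adjusted p = 0.0803) and *Arntl* (0.139) were lost too. The shared numbers did not pair the libraries: deviations of same-numbered libraries correlated at -0.20 to 0.03 across genes, and 0 of 8 libraries correlated best with its own number. Depth is unknown, so how far it limits *Smpdl3b* and *Smpd5*, both near or under 1 TPM, cannot be said.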

Other observations

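Of the 5 genes most like *Smpd3*, *Chd9* and *Mt2* lie on chromosome 8, as *Smpd3* does, although neither is among its 10 nearest tested genes on either side. This was noticed after the values were seen. Chromosome 8 held 5.49% of the tested genes with a known chromosome. Of its 696 tested genes, 1.29% were lower in HKO livers without overlap, beside 1.46% of all tested genes, and 2.44% were higher without overlap, beside 3.29% of all. *Chd9* had 140.03, 239.68, 162.58 and 179.94 TPM in HKO livers 1 to 4, against 325.67, 343.32, 450.92 and 284.67 TPM in FLOX livers 1 to 4. Within each group the 4 libraries stood in the same order for *Chd9* as for *Smpd3*, with HKO 2 and FLOX 3 highest and HKO 1 and FLOX 4 lowest, which is what the measure of likeness selects for.

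Of the 8 Kupffer cell markers, 3 were lower in HKO livers without overlap and 5 overlapped between the groups. The share without overlap was taken over tested genes only, so no share stands beside the 3 of 8. Among the 6 tested markers, 1 was lower without overlap, beside 1.46% of all tested genes, and 0 passed in limma. The level of *Marco*, a scavenger receptor gene of Kupffer cells, differed without overlap, at 9.81, 8.59, 11.98 and 8.11 TPM in HKO livers 1 to 4 and 20.05, 16.71, 16.95 and 17.93 TPM in FLOX livers 1 to 4 (limma adjusted p = 0.0609, not past the threshold). *Timd4* and *Cd163*, the other 2 without overlap, were under 1 TPM in every library and were not tested. Both are named after their values were seen. *Timd4* had 0.30 to 0.37 TPM in HKO livers and 0.51 to 0.89 TPM in FLOX livers. *Cd163* had 0.18 to 0.34 TPM in HKO livers and 0.51 to 0.92 TPM in FLOX livers. Of the remaining tested markers, *Cd5l*, *Adgre1* and *Vsig4* had log2 fold changes of -0.21, -0.06 and -0.04. *Clec4f* and *Csf1r*, also named after their values were seen, had log2 fold changes of 0.02 and 0.005. *Marco* did not follow HKO 1 and FLOX 4, the libraries lowest in the Kupffer cell sum and in *Smpdl3a*.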
